A study of Mus musculus with 16 samples.

Results

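The genes described here are 10 goblet cell mucus and trefoil genes, namely Muc2, Clca1, Fcgbp, Zg16, Tff3, Tff1, Agr2, Spink4, Muc13 and Muc1. They were taken as a list of symbols and matched to the Ensembl identifiers of the count tables, where all 10 were present among 46078 gene identifiers. Of these, 9 were among the 16510 genes that passed the filter on low counts, and Muc1 did not pass it. The study, on Apc-mutant cells as competitors in early intestinal tumours, sequenced RNA from 16 mouse intestinal organoid cultures, which are crypts grown as epithelial spheres in Matrigel with EGF, R-spondin and Noggin.

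The labels gave 6 groups, all on the C57BL6 background. Titles carrying APCCM or WTCM marked 12 libraries in conditioned medium, with 3 libraries for each title on day 2 and 3 on day 4. The other 4 libraries were untreated on day 2, 2 from Apc mutant and 2 from WT organoids. Crypts came, per the growth protocol, from mice with Lgr5-EGFP-IRES-CreERT2 alone, from mice that also had the Apcfl/fl allele, or from Villin-CreERT2.Apcfl/fl mice. Apc was deleted in culture with 4OH-Tamoxifen. The Lgr5-EGFP-IRES-CreERT2 organoids served as WT and carried mCherry (LeGO-C2), whereas recombined Lgr5-EGFP-IRES-CreERT2;Apcfl/fl cells carried Venus (LeGO-V2), so genotype and reporter changed together. Which Cre line gave which library, and the age of the mice, were not in the labels used here.

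Conditioned medium was collected from WT or Apc-/- cultures and given fresh growth factors. The genotype label was Apc mutant for APCCM and WT for WTCM libraries, while the treatment label read Apc-mutant conditioned medium for all 12. The series' design text placed day 4 with organoids for which it named no conditioned medium. An APCCM minus WTCM difference may therefore be one of cell genotype or of the source of the medium, and these cannot be told apart. Notum, a Wnt target that is high when Apc is lost, lay between 258 and 312 CPM in the untreated Apc mutant libraries, yet between 0.138 and 1.03 CPM in all 12 conditioned medium libraries. Nkd1 likewise lay between 440 and 532 CPM in the untreated Apc mutant libraries and between 1.17 and 4.72 CPM in all 12. Both genes went against the Apc mutant label of the APCCM libraries, so the text below speaks of libraries labelled APCCM or WTCM. CPM here is the read count relative to library size, scaled by the trimmed mean of M values (TMM).

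Goblet cells are secretory cells of the intestinal epithelium that fill their apex with mucin granules. Muc2, the gel-forming mucin, is folded and linked into large polymers in the endoplasmic reticulum and Golgi with the help of Agr2, then O-glycosylated, packed and released to form the mucus layer. Other secreted proteins join it there: Fcgbp, a protein of repeated von Willebrand domains; Clca1, a protease that trims Muc2; Zg16, a lectin that binds Gram-positive bacteria; the trefoil peptides Tff3 and Tff1, linked to epithelial repair; and Spink4, of the Kazal protease inhibitor family. Muc13 and Muc1 are membrane-bound mucins of the cell surface. In the gut Tff3 is the goblet cell trefoil peptide, while Tff1 is best known from the surface cells of the stomach.

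On GRCm38, Muc2 lies on chromosome 7 from 141690340 to 141754693 on the forward strand, and Fcgbp (28071236 to 28120862, forward) and Zg16 (127050156 to 127087328, reverse) lie on the same chromosome. Clca1 (145003817 to 145032776, reverse) and Muc1 (89229057 to 89233381, forward) are on chromosome 3. Tff3 (31125306 to 31129646) and Tff1 (31161395 to 31165277) are neighbours on the reverse strand of chromosome 17. Agr2 is on chromosome 12 from 35992907 to 36004087, Spink4 on chromosome 4 from 40920052 to 40931395 and Muc13 on chromosome 16 from 33794037 to 33819934, all forward. Antisense or small genes overlap 3 of them, Zg16, Tff1 and Muc13, with at most 13 reads in any library. No source used here gave the strand setting of the counting, and a read cannot be assigned to one strand of such a pair.

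Promoter sequence from RefSeq was at hand for 5 of the 10 genes (GRCm38.p6), and the 250 bases before the RefSeq start are shown for the 3 secretory genes among them, because these 3 fell by different amounts in the untreated Apc mutant libraries. The Agr2 window ends at 35992924, which is past the gene start of 35992907 given above. Distances below are counted from the RefSeq start. Capitals mark matches on either strand to 4 patterns. They are CCACCC, a pattern of the KLF family of transcription factors, then CAGCTG, which is one form of the E-box, then TATAAA, the TATA box, and lastly TTTATG, which is a pattern of the CDX family.
Muc2, chr7:141690090-141690339, forward strand: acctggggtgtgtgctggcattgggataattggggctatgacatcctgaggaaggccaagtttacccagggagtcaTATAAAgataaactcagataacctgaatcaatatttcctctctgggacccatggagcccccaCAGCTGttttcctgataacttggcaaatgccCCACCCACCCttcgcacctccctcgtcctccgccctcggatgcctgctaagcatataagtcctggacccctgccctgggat
Fcgbp, chr7:28070986-28071235, forward strand: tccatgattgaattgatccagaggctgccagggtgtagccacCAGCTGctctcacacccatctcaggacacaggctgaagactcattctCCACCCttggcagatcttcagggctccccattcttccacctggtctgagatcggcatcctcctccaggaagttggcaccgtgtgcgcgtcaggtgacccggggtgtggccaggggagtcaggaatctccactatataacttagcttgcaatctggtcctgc
Agr2, chr12:35992675-35992924, forward strand: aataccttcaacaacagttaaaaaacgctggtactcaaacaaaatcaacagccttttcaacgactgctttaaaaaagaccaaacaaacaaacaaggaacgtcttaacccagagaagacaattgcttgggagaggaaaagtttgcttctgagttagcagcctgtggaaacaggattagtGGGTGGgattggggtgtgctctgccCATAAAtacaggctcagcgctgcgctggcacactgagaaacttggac

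All 3 windows shown held CCACCC, in Muc2 as 2 matches that overlap and in Agr2 on the reverse strand. Over all 6 windows at hand it was in 3, and those of Muc1 and Muc13 lacked it. The patterns TGTTTAC (FOX family) and TGACGT (CRE-like) were also searched for and were in 0 of the 6 windows. The first base of the match lay 81 and 77 bases before the start in Muc2, 161 in Fcgbp and 72 in Agr2. The E-box was in Muc2 (112 bases before the start) and Fcgbp (208 bases), and TTTATG was in Agr2 on the reverse strand (47 bases). Of the 3 windows shown, TATAAA was in that of Muc2 alone, 174 bases before the start. These letters are common: of 32851 promoter windows of the same length, 28.1% held the KLF pattern, 13% the E-box, 12.4% the TATA box and 10.8% the CDX pattern. Each match is a description of the letters and not of a bound factor.

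Library depth ranged from 8325979 to 29152692 reads assigned to genes. The untreated and conditioned medium libraries differed in kind: reads in no annotated gene made up 4.78 to 7.32% in the former and 14.4 to 19.2% in the latter, and histone transcripts, which lack a poly(A) tail, 50.5 to 53.2 against 3976 to 5711 CPM before TMM scaling. For that reason levels were not tested between untreated and conditioned medium libraries. WTCM day 4 replicate 1 stood apart from its 2 replicates, with a chi-square per degree of freedom of 39.9 and 42.2 against at most 6.08 for every other replicate pair, and the goblet gene and list calls that changed without it are given beside the results. The labels do not say that replicates came from separate animals or cultures, so p-values measure the spread between these libraries, which may be technical. In such bulk RNA, fewer goblet cells and less RNA per goblet cell cannot be told apart.

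**Figure D1:**
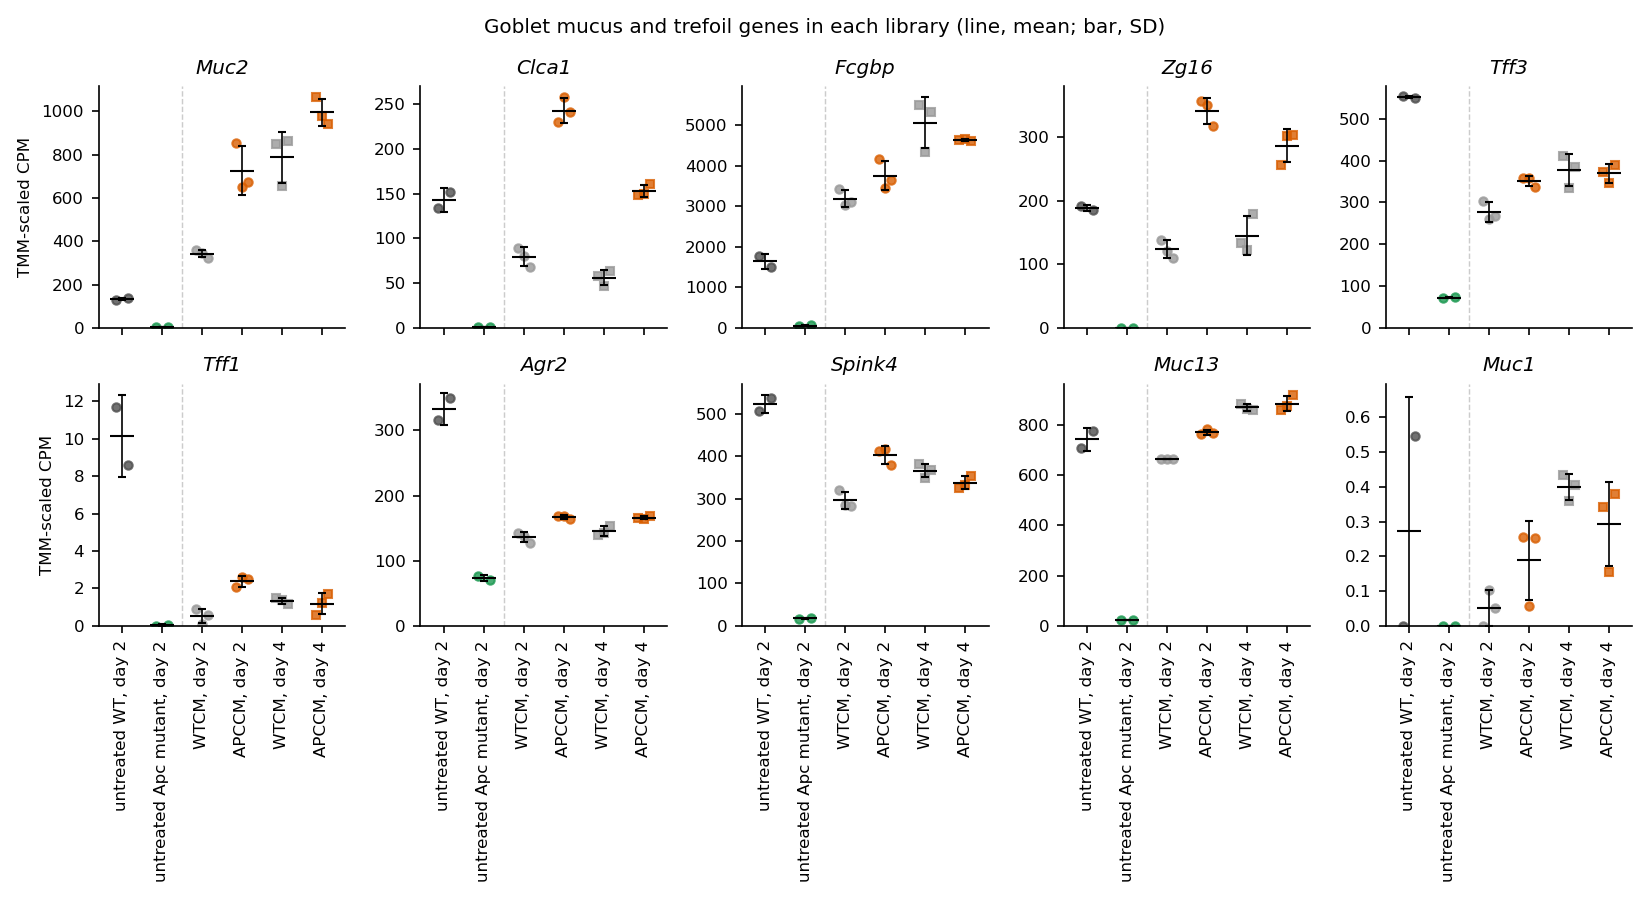
TMM-scaled CPM (vertical axis, linear, each panel to its own scale) of the 10 genes in each of the 16 libraries, by group along the horizontal axis. Points are libraries, lines group means and bars SD; the dashed line divides untreated from conditioned medium libraries, and the untreated Apc mutant libraries sit lowest for all 10 genes except that Muc1 was also at 0 in 1 untreated WT library and 1 WTCM day 2 library.

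Untreated Apc mutant organoids held far less RNA of the goblet genes than untreated WT organoids on day 2. All 9 genes tested fell, with log2 fold changes from -2.19 (Agr2) to -9.87 (Zg16) and a median of -5.02 against 0.00 over all genes tested. In this comparison 30.1% of all genes were called lower and 62.5% were called in either direction (edgeR quasi-likelihood test, Benjamini-Hochberg adjusted p under 0.05), so a call by itself was common here. The ranges of the groups did not overlap for any of the 9, which held in the lower direction for 36.4% of all genes. In either direction the untreated comparison called more genes than any other. The untreated libraries were shallower than the others, with at most 13027701 reads. Reads in no annotated gene made up 6.86 to 7.32% in the Apc mutant and 4.78 to 5.02% in the WT libraries, and their part in the result was not tested.

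Muc2 measured 129 and 137 CPM in the untreated WT libraries and 2.84 and 2.57 CPM in the untreated Apc mutant libraries. The mucin was 49.1-fold lower in the Apc mutant (log2 fold change -5.62, SE 0.18, edgeR adjusted p = 4.6e-19). Clca1, the protease that acts on Muc2, measured 134 and 152 CPM in WT and 0.831 and 0.611 CPM in Apc mutant libraries, 198-fold lower (log2 fold change -7.63, SE 0.21). The groups lay far apart for both genes.

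Zg16 fell furthest among the well-counted genes. It measured 192 and 185 CPM in the WT libraries and 0.208 and 0.183 CPM in the Apc mutant libraries, where it rested on 6 reads in all (log2 fold change -9.87, SE 0.28, adjusted p = 6.4e-20). Fcgbp measured 1772 and 1508 CPM in WT and 52.2 and 62.1 CPM in Apc mutant libraries, 28.7-fold lower. Spink4 measured 508 and 538 CPM in WT and 16 and 18.6 CPM in Apc mutant libraries, 30.1-fold lower. These 2 secreted proteins thus kept a measurable level in the mutant while the lectin was almost absent.

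The trefoil peptide Tff3 and the folding enzyme Agr2 kept the most. Tff3 measured 553 and 550 CPM in WT and 71.0 and 73.9 CPM in Apc mutant libraries, 7.61-fold lower (log2 fold change -2.93, SE 0.09, adjusted p = 2.3e-19). Agr2 measured 316 and 350 CPM in WT and 75.9 and 69.7 CPM in Apc mutant libraries, 4.57-fold lower (log2 fold change -2.19, SE 0.07, adjusted p = 8.3e-19). As a result the shares of the 10 genes in their summed CPM differed. Agr2 and Tff3 made up 29.6% and 29.4% of this sum in the Apc mutant libraries, against 7.82% and 12.9% in WT. Fcgbp made up 23.2% against 38.4%.

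Among the membrane mucins, Muc13 measured 711 and 777 CPM in WT and 22.4 and 23.2 CPM in Apc mutant libraries, 32.5-fold lower (log2 fold change -5.02, SE 0.07). Muc1 was at the edge of detection: 0 and 5 reads in the WT libraries and none in the Apc mutant libraries, where a count of 0 allows up to 0.0974 CPM over the group. Muc1 did not pass the filter on low counts, and its call depended on the method: with no filter the edgeR adjusted p was 0.025, with DESeq2 it was 0.033, and all 5 reads came from 1 library.

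The trefoil cluster on chromosome 17 showed both directions within neighbouring genes. Tff1 measured 11.7 and 8.62 CPM in WT, and a single read was counted in the Apc mutant libraries, giving a WT to mutant ratio of 319 (exact 95% interval 56.7 to 12666, counting error only). Tff2, the trefoil peptide of gastric gland mucus, lies between Tff3 and Tff1, 11.4 kb from the former and 17.1 kb from the latter. It rose, from 0.218 ± 0.154 CPM (SD, n = 2) in WT to 6.04 ± 0.111 CPM in Apc mutant libraries (log2 fold change 4.66, SE 0.44, edgeR adjusted p = 1.3e-09). So the outer genes of this cluster fell and the middle gene rose.

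The secreted mucin cluster on chromosome 7 did likewise. Muc6, the gel-forming mucin of gastric glands, ends 35.0 kb before Muc2 begins and runs on the opposite strand. Muc6 had no read in the untreated WT libraries and 34.8 ± 1.85 CPM in the Apc mutant libraries, at least 249-fold higher (against 3 reads over the WT group). Muc5ac, 34.3 kb beyond Muc2, reached 0.452 ± 0.0520 CPM in the Apc mutant libraries, with 14 reads in all and none in WT. Muc2 fell between these 2 neighbours.

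**Figure D2:**
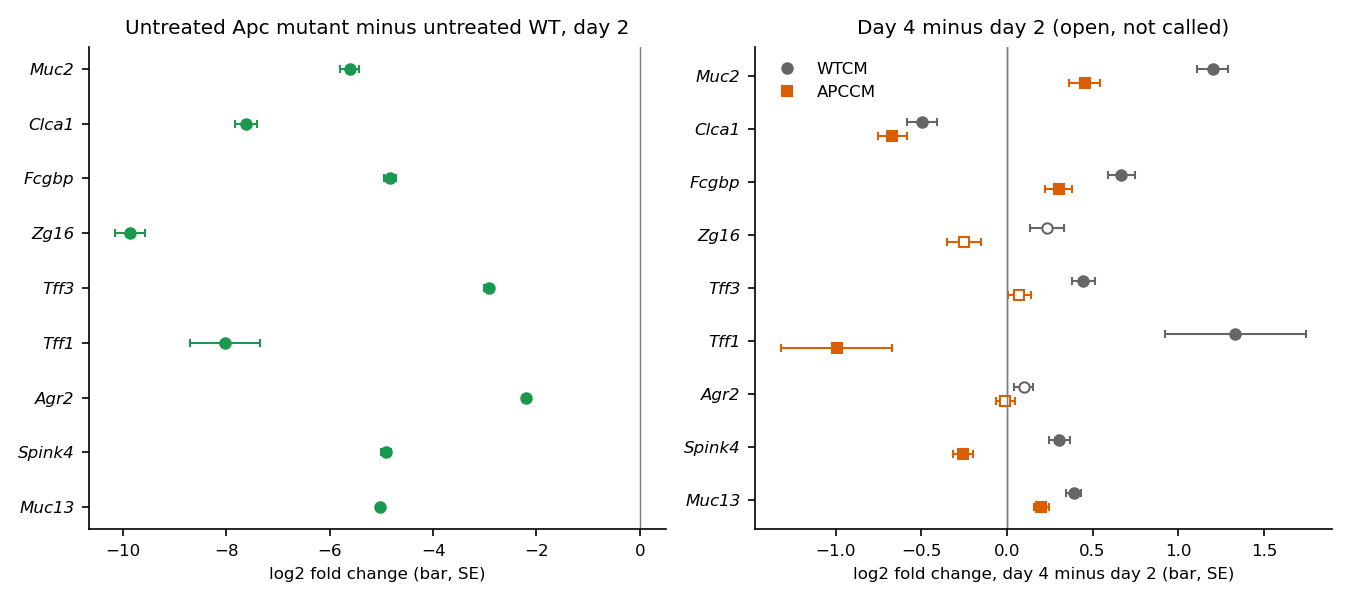
Log2 fold change (horizontal axis) of the 9 genes tested, for untreated Apc mutant minus untreated WT on day 2 (left) and for day 4 minus day 2 within the WTCM and APCCM labels (right); bars are SE and open symbols were not called. On the left all 9 genes sit below 0, from -2.19 for Agr2 to -9.87 for Zg16, with the Tff1 value resting on 1 read in the mutant; on the right Clca1 is below 0 under both labels.

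Markers of other epithelial lineages also changed in the untreated comparison, where 30.1% of all genes were called lower and 32.4% higher. Of 10 enteroendocrine markers 9 fell, and their sum was 15.2 to 16.7 CPM against 481 to 484 CPM, with Gip, Gcg, Cck and Sct at 0 in the Apc mutant. Paneth markers fell for 7 of 10 and rose for 3 (1122 to 1178 against 7300 to 7592 CPM), enterocyte markers fell for 9 of 10 and rose for 1 (585 to 603 against 9498 to 9651 CPM), and all 6 tuft markers tested fell. Stem cell markers rose for 6 of 8 and fell for 2, while their sum was lower in the Apc mutant (3206 to 3234 against 3777 to 4083 CPM), where Olfm4 was under 1 CPM. The fibroblast list summed to 271 to 287 CPM in the mutant against 4.80 to 5.80 CPM, nearly all of it Vim, with Col1a2, Col3a1, Dcn, Lum and Pdpn at 0. Of the 4 gastric surface markers tested 3 rose and 1 fell, with a sum of 42.6 to 45.5 CPM against 27.5 to 32.3 CPM. The part of these lists in the goblet values was not tested.

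In conditioned medium all goblet genes but Muc1 were counted in every library, and on day 2 the libraries labelled APCCM held more of them than those labelled WTCM. All 9 genes tested were higher, where 8.54% of all genes tested were called higher, 8.15% lower and 16.7% in either direction. The CPM ranges of the 2 labels did not overlap for any of the 9, which held in the higher direction for 16.7% of all genes. The median log2 fold change of the 9 was 0.44, against 0.00 over all genes tested.

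Muc2 measured 855, 650 and 675 CPM in the APCCM and 358, 347 and 324 CPM in the WTCM libraries on day 2. Replicate 1 was the highest of the APCCM libraries, and the lowest APCCM library was still well above the highest WTCM library (2.12-fold, log2 fold change 1.08, SE 0.09, adjusted p = 5.5e-09). Clca1 measured 230, 258 and 241 CPM against 89.2, 80.6 and 68.2 CPM, 3.06-fold higher (adjusted p = 5.0e-12). Zg16 measured 356, 350 and 317 CPM against 139, 121 and 110 CPM, 2.76-fold higher (log2 fold change 1.47, SE 0.10, adjusted p = 1.6e-10). The mucin, its protease and the lectin thus made up the 3 well-counted genes with a difference of over 1 on the log2 scale.

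Differences in the other secreted proteins were smaller. Spink4 measured 412, 416 and 378 CPM against 320, 286 and 282 CPM (log2 fold change 0.44, SE 0.06, adjusted p = 7.2e-06). Tff3 measured 357, 359 and 338 CPM against 303, 261 and 266 CPM (0.34, SE 0.07, adjusted p = 0.00065). The APCCM libraries of both genes lay close together, with an SD of 20.9 CPM for Spink4 and 11.9 CPM for Tff3. Fcgbp, the most abundant of the 10 by counts, measured 4159, 3453 and 3649 CPM against 3428, 3020 and 3101 CPM (0.24, SE 0.08, adjusted p = 0.039). The lowest APCCM and the highest WTCM value of Fcgbp were close, and its call was lost with DESeq2 (adjusted p = 0.10) and in 4 of 6 fits that left out 1 library (0.058 to 0.23): without APCCM replicate 1 or 3, or WTCM replicate 2 or 3.

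Agr2 measured 169, 169 and 164 CPM in APCCM and 142, 139 and 127 CPM in WTCM libraries (log2 fold change 0.30, SE 0.05, adjusted p = 0.00036). Muc13 measured 763, 783 and 767 CPM against 664, 665 and 665 CPM (0.22, SE 0.04, adjusted p = 0.0014), a small step between very even groups. Tff1 had the highest fold of the 9 but the fewest reads, 134 over the 3 APCCM and 32 over the 3 WTCM libraries. It measured 2.05, 2.61 and 2.48 CPM against 0.874, 0.102 and 0.547 CPM (log2 fold change 2.18, SE 0.38, adjusted p = 0.00022). Without WTCM replicate 1 the Tff1 fold was 7.12 in place of 4.53. Muc1 had 11 reads over the 3 APCCM and 3 reads over the 3 WTCM libraries and was not tested.

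On day 4 the label difference was seen in fewer of the genes. Of the 9 tested 4 were higher under APCCM and 5 were not called, where 7.83% of all genes were called higher, 7.8% lower and 15.6% in either direction. The median of the 9 was 0.03, against 0.00 over all genes tested. The ranges of the labels did not overlap, with APCCM higher, for those 4, as for 17.2% of all genes. Clca1 and Zg16 lay well apart. Clca1 measured 148, 150 and 160 CPM against 57.9, 47.3 and 63.4 CPM (2.72-fold, log2 fold change 1.44, SE 0.09, adjusted p = 3.7e-11), and Zg16 measured 256, 301 and 303 CPM against 133, 123 and 179 CPM (1.97-fold, log2 fold change 0.98, SE 0.10, adjusted p = 1.0e-07). Without WTCM replicate 1 the log2 fold changes were 1.46 and 0.92.

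Muc2 measured 1064, 979 and 941 CPM in APCCM and 850, 653 and 864 CPM in WTCM libraries on day 4. The ranges did not overlap, but the difference was small (log2 fold change 0.33, SE 0.09, adjusted p = 0.011), and it was not called without APCCM replicate 1 (adjusted p = 0.071) or without WTCM replicate 2 (0.095). Agr2 measured 165, 164 and 169 CPM against 140, 143 and 154 CPM (0.19, SE 0.05, adjusted p = 0.016). The Agr2 call was lost without APCCM replicate 3 or WTCM replicate 1 or 2 (adjusted p 0.064 to 0.080), and leaving out WTCM replicate 2 left 2 of the 9 genes called. The groups of this folding enzyme were apart by more than the SD of either, at 166 ± 2.24 against 145 ± 7.49 CPM (SD, n = 3).

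For the 5 genes that were not called on day 4, the ranges of the 2 labels overlapped. Fcgbp measured 4633, 4663 and 4600 CPM against 5493, 4340 and 5332 CPM, with a 95% interval of the log2 difference from -0.28 to 0.03. Tff3 measured 373, 346 and 390 CPM against 411, 336 and 385 CPM (interval -0.16 to 0.10). For both, the WTCM libraries spread more widely than the APCCM libraries. Spink4 measured 326, 331 and 354 CPM against 382, 349 and 367 CPM. Its log2 difference of -0.12 had an interval from -0.23 to -0.002, although its edgeR p was 0.058 before and 0.20 after adjustment. Intervals of this kind are thus somewhat narrower than the test itself implies. Muc13 measured 862, 876 and 920 CPM against 886, 866 and 860 CPM (interval -0.06 to 0.11), and Tff1 0.587, 1.24 and 1.69 CPM against 1.46, 1.39 and 1.14 CPM (interval -0.83 to 0.53). The width of the Tff1 interval shows how little its 76 and 89 reads could resolve.

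**Figure D3:**
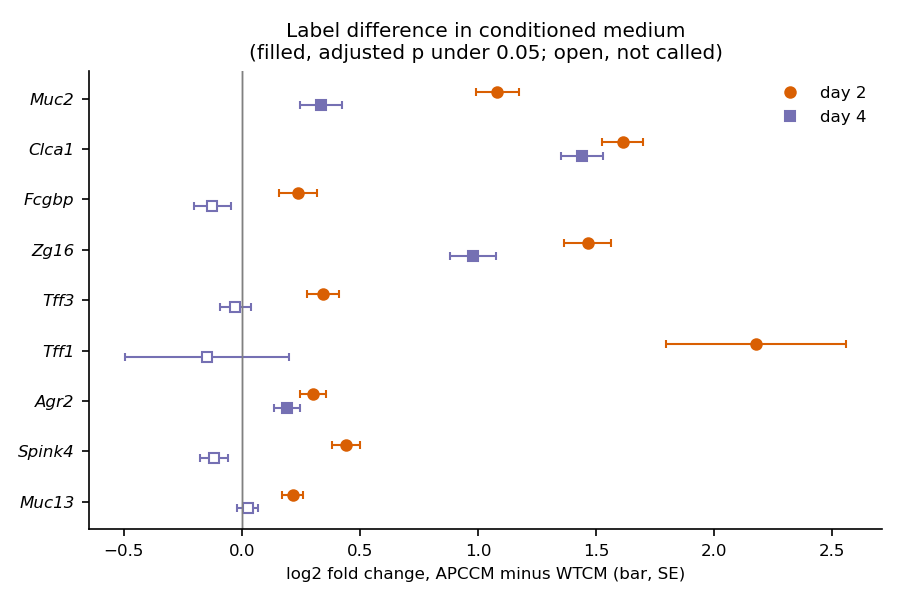
Log2 fold change of APCCM minus WTCM libraries (horizontal axis, bars SE) for the 9 genes tested on day 2 (circles) and day 4 (squares); filled symbols were called and open symbols were not. Every gene sits above 0 on day 2, Clca1 and Zg16 stay near or above 1 on day 4, and the day 4 values lie to the left of the day 2 values for all 9 genes.

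The change in the label difference between days was tested by itself, as the day 4 difference minus the day 2 difference. It was lower for 4 of the 9 genes, where 1.24% of all genes tested were called lower, 0.884% higher and 2.13% in either direction. These were Muc2 (-0.75, SE 0.13, adjusted p = 0.00094), Spink4 (-0.56, SE 0.08, adjusted p = 0.00026), Tff1 (-2.33, SE 0.52, adjusted p = 0.015) and Tff3 (-0.37, SE 0.09, adjusted p = 0.032). The Tff3 call was lost in 8 of 12 fits that left out 1 library (adjusted p 0.067 to 0.12), and the Tff1 value was -2.98 without WTCM day 2 replicate 1. No change was called for Clca1 (-0.17, adjusted p = 0.64, approximate 95% interval -0.41 to 0.07) or Agr2 (-0.11, adjusted p = 0.64). The values for Zg16 (-0.49, adjusted p = 0.070), Fcgbp (-0.36, adjusted p = 0.098) and Muc13 (-0.19, adjusted p = 0.15) were not called either, but all 3 were called when the conditioned medium libraries were fitted without the untreated ones (adjusted p = 0.047, 0.025 and 0.040). Without WTCM day 4 replicate 1, the library that stood apart, Muc2, Spink4 and Tff1 were called.

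Within the WTCM label, most goblet genes were higher on day 4 than on day 2. Of the 9 genes 6 rose and 1 fell, where 12.5% of all genes rose and 11.6% fell (24.1% in all). The median log2 change was 0.39. Muc2 rose 2.3-fold, from 343 ± 17.3 to 789 ± 118 CPM (SD, n = 3), with a log2 fold change of 1.20 (SE 0.09, edgeR adjusted p = 1.7e-09). Fcgbp rose from 3183 ± 216 to 5055 ± 625 CPM (0.67), Tff3 from 277 ± 23.0 to 377 ± 38.3 CPM (0.45), Muc13 from 664 ± 0.629 to 871 ± 13.6 CPM (0.39) and Spink4 from 296 ± 20.7 to 366 ± 16.1 CPM (0.31). Clca1 went the other way, from 79.3 ± 10.5 to 56.2 ± 8.22 CPM (-0.50, SE 0.09, adjusted p = 0.00026).

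The remaining WTCM values were less firm. Tff1 rose from 0.508 ± 0.387 to 1.33 ± 0.167 CPM (1.33, SE 0.41, adjusted p = 0.020), a call that was lost without WTCM day 2 replicate 2 or day 4 replicate 1 or 2 (adjusted p 0.050 to 0.11). Zg16 (0.24, adjusted p = 0.088) and Agr2 (0.10, adjusted p = 0.21) were not called. Without WTCM day 4 replicate 1, 6 of the 9 genes were called, Muc2 with a log2 fold change of 1.14. Without WTCM day 2 replicate 1 the Tff1 log2 value was 1.99.

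Markers of other cell types moved between days under WTCM too, where 12.5% of all genes rose and 11.6% fell. Paneth markers rose for 7 of 10 and fell for 1 (5003 to 5133 CPM on day 2 and 6437 to 7379 CPM on day 4), enterocyte markers rose for 8 of 10, enteroendocrine markers for 5 of 10 and tuft markers for 3 of 6, and proliferation markers fell for 6 of 8. Without WTCM day 4 replicate 1 the counts were 6 and 2 for Paneth, 8 for enterocyte, 5 for enteroendocrine and 2 for tuft markers, and 3 of 8 proliferation markers fell. Of 8 stem cell markers 1 rose and 2 fell. The part of these lists in the goblet values was not tested.

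Within the APCCM label the genes divided. Of the 9, 3 rose and 3 fell, where 12.2% of all genes rose and 11.7% fell (23.9% in all), and the median change was -0.01. Muc2 rose from 727 ± 112 to 995 ± 62.9 CPM (log2 fold change 0.45, SE 0.09, edgeR adjusted p = 0.00053), Fcgbp from 3754 ± 364 to 4632 ± 31.6 CPM (0.30, adjusted p = 0.0060) and Muc13 from 771 ± 10.5 to 886 ± 30.2 CPM (0.20, adjusted p = 0.0018). Clca1 fell from 243 ± 13.7 to 153 ± 6.71 CPM (-0.67, SE 0.08, adjusted p = 2.3e-06) and Spink4 from 402 ± 20.9 to 337 ± 15 CPM (-0.25, adjusted p = 0.0026). Tff1 fell from 2.38 ± 0.294 to 1.17 ± 0.553 CPM (-0.99, adjusted p = 0.027), a call lost in 4 of 6 fits that left out 1 library, those without day 2 replicate 2 or 3 and day 4 replicate 1 or 2 (adjusted p 0.058 to 0.15).

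Zg16 (-0.25, adjusted p = 0.062), Tff3 (0.07, adjusted p = 0.47) and Agr2 (-0.01, adjusted p = 0.93) were not called between days under APCCM. The Zg16 ranges of the 2 days did not overlap all the same, with every day 4 library lower, as for 19.3% of all genes, and it was called when the untreated libraries were left out of the fit (adjusted p = 0.048). Muc2 and Clca1, the mucin and its protease, thus moved in opposite directions between days under both labels. The marker lists in this comparison stand beside 12.2% of all genes that rose and 11.7% that fell. Stem cell markers fell for 7 of 8 (4611 to 4693 CPM on day 2 and 3433 to 3767 CPM on day 4). Paneth markers rose for 3 and fell for 5 of 10. Enterocyte markers rose for 5 of 10, enteroendocrine markers rose for 5 and fell for 1 of 10, 1 of 6 tuft markers rose and 3 of 8 proliferation markers fell. Their part in the goblet values was not tested. The day comparisons share libraries with the label comparisons and are no independent support for them.

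Levels can be set beside each other between genes only per length, as CPM per kilobase of exon. In untreated WT organoids the small secreted proteins led, with Tff3 at 1119 and Spink4 at 1096 CPM per kb, which overlapped in range. Agr2 (258) and Muc13 (245), and Fcgbp (156) and Zg16 (150), formed 2 further pairs that overlapped, followed by Clca1 (37.9), Muc2 (18.6), Tff1 (14.4) and Muc1 (0.116). In the untreated Apc mutant libraries the order began with Tff3 (147), Agr2 (56.4) and Spink4 (36.3), and Muc13 (7.52) and Fcgbp (5.44) came before Muc2 (0.379). Clca1 (0.191) and Zg16 (0.156) overlapped at the low end. The Muc2 gene model is marked as fragmented in the annotation, and its summed exon length of 7127 bases sets its value per kilobase.

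In conditioned medium Spink4 and Tff3 again led and Fcgbp came next in all 4 groups. Spink4 was above Tff3 without overlap in APCCM day 2 libraries (843 and 713 CPM per kb), and the pair overlapped in WTCM day 2 (620 and 561), APCCM day 4 (707 and 750) and WTCM day 4 (767 and 765) libraries. Muc2 stood at 102, 48.2, 140 and 111 CPM per kb in APCCM day 2, WTCM day 2, APCCM day 4 and WTCM day 4 libraries. It was below Agr2 in both day 2 groups (130 and 105) and above it in APCCM day 4 libraries (129), while in WTCM day 4 libraries Zg16 (115), Agr2 (113) and Muc2 overlapped. By share of the summed CPM of the 10 genes, Fcgbp held 55.5% to 64.7% and Muc2 6.73% to 12.7% over these groups. Muc1 stayed lowest in every group, with at most 11 reads in a library.

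The genes whose log2 CPM followed Muc2 most closely over the 12 conditioned medium libraries were Itga1 (Pearson r = 0.965), Gcnt2 (0.963), Chmp2b (0.962), Aplp2 (0.960) and Chgb (0.959). Those closest to Tff3 were Krt23 (0.953), F11r (0.944), Rasl11b (0.944), Ptprj (0.932) and Rhoc (0.930). None of the other goblet genes was among them. With Muc2, Muc13 (0.908) and Tff3 (0.898) were the most alike of the members, Fcgbp had 0.846, and Clca1 had 0.339. These correlations describe libraries that share 4 groups, their depth and their scaling, and they carry no test.

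The wider goblet programme was described by 5 further lists. Among goblet fate and transcription factors, none of 10 was higher and 2 were lower under APCCM on day 2, beside 8.54% and 8.15% of all genes. These were Cdx2 (log2 fold change -0.16, adjusted p = 0.030) and Foxa3 (-0.22, adjusted p = 0.048). On day 4 Foxa3 was lower (-0.27), 1 of 10 beside 7.8% of all genes, and it was not called without WTCM replicate 1 (adjusted p = 0.089). In the untreated Apc mutant libraries 6 of the 10 fell and 4 rose, with a median of -0.61, beside 30.1% and 32.4% of all genes. The summed CPM of the list was higher in the Apc mutant, at 384 to 405 against 340 to 381 CPM. The 4 factors named next had the largest changes, and all of these fell. Spdef, a factor for goblet cell maturation, was at 1.06 ± 0.228 against 18.3 ± 4.42 CPM (SD, n = 2, log2 fold change -4.11). Gfi1 fell by 2.28, Atoh1, the master factor of the secretory lineage, by 2.1 and Creb3l1 by 1.20. Between days 6 of the 10 factors fell and 2 rose under WTCM, where 11.6% of all genes fell and 12.5% rose. Under APCCM 5 fell and 1 rose, beside 11.7% and 12.2% of all genes. Atoh1 fell from 19.0 to 10.5 CPM under WTCM (-0.85) and from 19.8 to 10.4 CPM under APCCM (-0.93). Gfi1, Foxa2 and Foxa3 fell with it under both labels. Without WTCM day 4 replicate 1, 6 fell and 1 rose under WTCM, and the rise of Klf4 was not called (edgeR adjusted p = 0.066).

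Enzymes of mucin folding and O-glycosylation fell for 13 of 16 genes tested in the untreated Apc mutant and rose for 2, with a median of -0.95, where 30.1% of all genes fell and 32.4% rose. Gcnt4, a branching transferase, was at 1.64 against 88.9 CPM (-5.76), Galnt5 fell by 5.33 and Ern2, the goblet cell stress sensor of the endoplasmic reticulum, by 4.10. Gcnt1, a core branching enzyme, rose from 0.491 to 18.3 CPM (5.27). In conditioned medium on day 2, 7 of 16 were higher and 1 lower under APCCM (median 0.14), beside 8.54% and 8.15% of all genes. Gcnt3, which builds branched mucin glycans, was at 380 against 218 CPM (0.80, adjusted p = 5.8e-09), and Gcnt1 (1.33), Galnt5 (0.43) and Galnt3 (0.35) were also higher. On day 4, 3 of 16 were higher and 1 lower (median 0.07), beside 7.83% and 7.8% of all genes, Gcnt1 (1.28), Gcnt3 (0.63) and Galnt3 (0.33) against Galnt12 (-0.17). Galnt12 was not called without WTCM replicate 1 (adjusted p = 0.12).

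Genes of the mucus granule and its release fell for 8 of 11 in the untreated Apc mutant and rose for 2 (median -2.42), beside 30.1% and 32.4% of all genes. Nlrp6, an inflammasome receptor needed for goblet cell secretion, was at 0.954 against 360 CPM (-8.52), and Rep15, Capn9 and Fer1l6 fell by 4.68, 4.43 and 4.33. On day 2 in conditioned medium 5 of 11 were higher and 1 lower (median 0.21), beside 8.54% and 8.15% of all genes, led by Fer1l6 (1.19), Bcas1 (1.07, 22.7 against 10.8 CPM), Rab27a, a small GTPase of secretory granules (0.90), and Sytl2, which binds it (0.63). The same 4 genes headed the list on day 4, Fer1l6 (0.67), Rab27a (0.64), Bcas1 (0.45) and Sytl2 (0.37), with 4 of 11 higher and 1 lower, beside 7.83% and 7.8% of all genes; without WTCM replicate 1 it was 4 and 0. The label difference itself changed between days for 2 of the 11 (1.24% of all genes were called lower and 0.884% higher): it fell by 0.63 for Bcas1 (adjusted p = 0.0034) and was higher by 0.39 for Nlrp6 (adjusted p = 0.010). Between days, 8 of 11 rose under WTCM (6 without day 4 replicate 1) and 5 under APCCM, where 12.5% and 12.2% of all genes rose, among them Capn9 (0.73 and 0.67) and Hepacam2 (0.58 and 0.25).

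Among other secreted goblet products, 5 of 6 fell and 1 rose in the untreated Apc mutant (median -3.17), beside 30.1% and 32.4% of all genes. Klk1 fell by 6.15, Ang4 from 291 to 26.9 CPM (-3.44) and Guca2a, the ligand guanylin, by 3.27, and the gene that rose was Tff2. On day 2 under APCCM 4 of 6 were higher and none lower (median 0.67), beside 8.54% and 8.15% of all genes. Reg4 was at 512 against 205 CPM (1.32, adjusted p = 7.9e-12) and Ang4 at 345 against 216 CPM (0.68). On day 4 Reg4 was at 551 against 235 CPM (1.23), while Itln1, a lectin, was lower at 1406 against 1943 CPM (-0.47), and 3 of 6 were higher and 1 lower with or without WTCM replicate 1, beside 7.83% and 7.8% of all genes. Ang4 and Itln1 also serve as Paneth cell markers here, and Ang4 has close relatives between which counting may divide reads.

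The other mucins were mixed in the untreated comparison, with 3 of 6 lower and 3 higher (median -1.03), beside 30.1% and 32.4% of all genes. Muc3, a membrane mucin of the brush border, was at 52.1 CPM in WT and had no read in the Apc mutant libraries, at least 532-fold lower (against 3 reads over the mutant group), and Muc4 fell by 3.70. Muc6 was among the 3 that rose. Muc3a rose by 0.80, and it is so close a relative of Muc3 that reads may be divided between them. In conditioned medium on day 2, 3 of 6 were higher under APCCM (median 0.39), beside 8.54% of all genes, namely Muc3a (0.52), Muc3 (0.44) and Muc4 (0.34), and on day 4 Muc3 (0.74) and Muc4 (0.39) were, beside 7.83%. Without WTCM day 4 replicate 1 Muc3a was called on day 4 as well (0.34, adjusted p = 0.030).

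**Figure D4:**
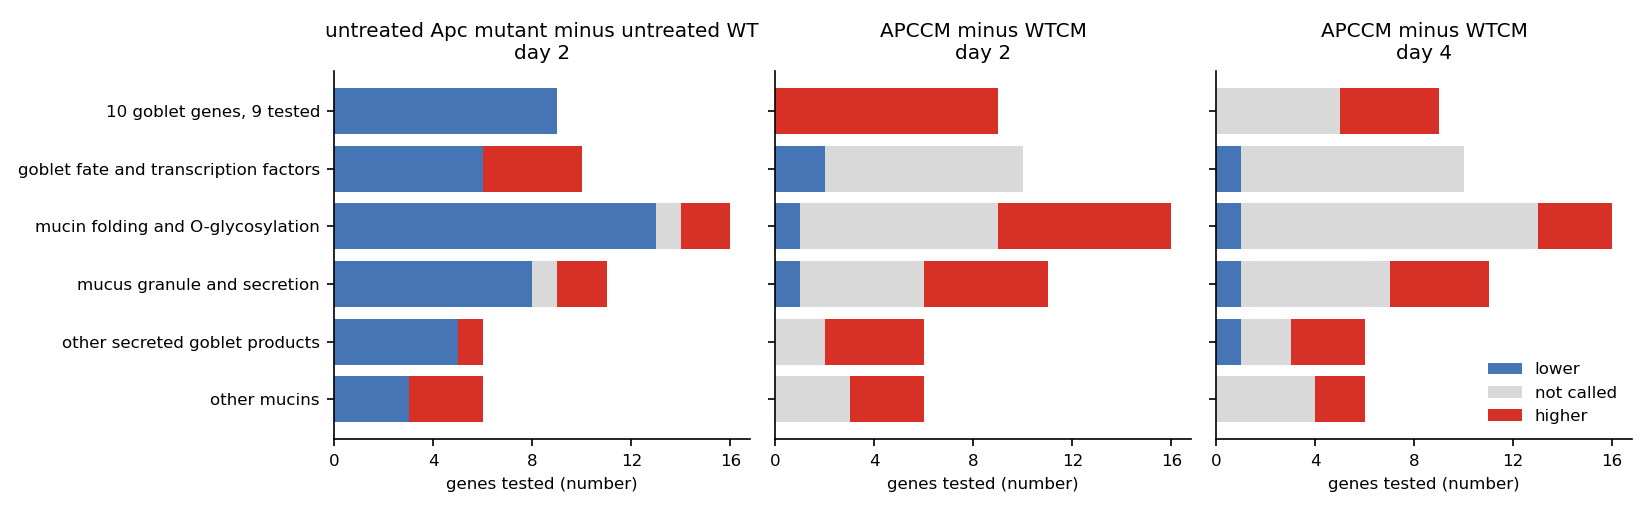
Number of genes tested (horizontal axis) that were lower, not called or higher, for the 10 goblet genes and 5 further goblet lists, in the untreated comparison (left) and in APCCM minus WTCM on day 2 (middle) and day 4 (right). The 9 tested goblet genes are all lower on the left, beside 30.1% of all genes, and all higher in the middle, beside 8.54%. The 10 fate and transcription factors have no higher gene in either conditioned medium panel, which is near the share of all genes called higher (8.54% on day 2 and 7.83% on day 4).

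Markers of several other cell types moved with the label in conditioned medium, where 8.54% of all genes were higher and 8.15% lower on day 2 and 7.83% and 7.8% on day 4. On day 2, 7 of 10 Paneth markers were higher under APCCM and none lower (6592 to 7193 against 5003 to 5133 CPM), as were 8 of 10 enteroendocrine markers, with 1 lower (843 to 953 against 514 to 540 CPM). Stem cell markers were lower for 5 of 8 and higher for none (4611 to 4693 against 5454 to 5736 CPM). Enterocyte markers were higher for 2, lower for 2 and not called for 6 of 10, and 1 of 6 tuft and 1 of 8 proliferation markers were higher. On day 4, Paneth markers were higher for 3 and lower for 3 of 10, enteroendocrine markers higher for 7 and lower for 1 (1102 to 1201 against 762 to 901 CPM), and stem cell markers lower for all 8 (3433 to 3767 against 5807 to 6237 CPM). On that day enterocyte markers were higher for 2 and lower for 4 of 10, tuft markers higher for 4 of 6 and proliferation markers higher for 2 of 8. Without WTCM day 4 replicate 1 these counts were 3 and 2 for Paneth, 7 and 1 for enteroendocrine, 8 lower for stem cell, 2 and 4 for enterocyte, 3 for tuft and 1 for proliferation markers. The Paneth list also shared the change between days, with a lower label difference on day 4 for 7 of 10 (6 without WTCM day 4 replicate 1). This stood beside 1.24% of all genes called lower. Fibroblast lists summed to at most 6.04 CPM and immune lists to at most 6.07 CPM in these libraries. Reads outside annotated genes made up 16.2 to 18.3% under APCCM and 14.6 to 15.2% under WTCM on day 4, and overlapped between labels on day 2 (15.6 to 19.2% and 14.4 to 16.5%). The part of these lists and of read composition in the goblet values was not tested.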

How the data were processed

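Total RNA libraries were made with the KAPA RNA HyperPrep kit with RiboErase after Nucleospin extraction, per the labels' protocols. The untreated libraries held far less RNA without a poly(A) tail than the conditioned medium libraries. Small non-coding RNAs were at 115 to 154 against 4291 to 8431 CPM before TMM scaling, and histone transcripts at 50.5 to 53.2 against 3976 to 5711 CPM. Whether the untreated libraries were made by this protocol was not tested. Trimmomatic 0.36, HISAT2 2.1.0, HTSeq 0.6.1p1 and the build GRCm38 are named in the submitters' processing notes; the annotation release and strand setting were not given in the sources used here. The authors deposited raw read counts per gene, 1 table per library, with 5 summary lines that were left out of library sizes. Symbols and coordinates came from GENCODE M21, and 45143 of 46078 identifiers (98.0%) had a symbol.

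Counts were scaled by TMM (factors 0.898 to 1.26) and fitted with edgeR 4.0.16 in R 4.3.3 (limma 3.58.1) after filterByExpr, with 1 mean per group over all 16 libraries and 10 residual degrees of freedom. Quasi-likelihood tests were adjusted by Benjamini-Hochberg over 16510 genes, with a threshold of 0.05. The code was tested on simulated counts. The members and gene lists were chosen with earlier results of these data known. Named pathway genes were at most 4 called genes per list and comparison, those with the largest absolute log2 fold change and a mean of at least 1 CPM in 1 group. Muc5ac, Notum, Nkd1, Xist and Ddx3y were named outside this rule, after their values were seen. Levels are TMM-scaled CPM, a change from unscaled CPM made after the data were seen. Intervals of log2 differences were the log2 fold change plus or minus 1.96 fitted SE. They are approximate and narrower than the few degrees of freedom of the test would give. Intervals for ratios of low counts cover counting error only. Same-numbered libraries did not deviate together (20 pairs, correlation -0.149 to 0.0529), so replicate numbers were not used as a block in the reported fit. Alternatives were DESeq2 1.42.0, RLE scaling, no filter on low counts, 1 medium class only, a replicate block, removal of RNAs lacking a poly(A) tail and leaving out each library; list counts without WTCM day 4 replicate 1 were added after the data were seen.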

Additional observations from a re-analysis of the deposited data

Results flagged for a closer look

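The difference between the APCCM and WTCM labels changed from day 2 to day 4 for 4 of the 9 goblet genes tested, by a test of that change (edgeR quasi-likelihood test, adjusted over all genes tested). All 4 were called lower, where 1.24% of all genes tested were called lower, 0.884% higher and 2.13% in either direction. The log2 values of the day 4 difference minus the day 2 difference were -0.75 for Muc2 (adjusted p = 0.00094), -0.37 for Tff3 (0.032), -2.33 for Tff1 (0.015) and -0.56 for Spink4 (0.00026). The Tff3 value was not called in 8 of 12 fits without 1 library, and Tff1 rests on 32 to 134 reads per group.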

How the results depend on the processing

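Of 693 alternative values for single genes, 645 kept their direction and their side of the threshold, 25 lost the call, 17 gained one and 6 changed sign. The sign changes were all in values that were not called: on day 4 the APCCM minus WTCM difference was -0.54 to 0.17 for Tff1, -0.11 to 0.037 for Tff3 and -0.0028 to 0.045 for Muc13 over the fits without 1 library (0.17 without APCCM replicate 1, 0.017 and 0.037 without APCCM replicate 2 and WTCM replicate 1, and -0.0028 without APCCM replicate 3), and the APCCM day difference of Agr2 became 0.000629 with DESeq2 and 0.000857 with RLE scaling. Leaving out 1 library at a time gave 9 to 10 goblet genes and 9232 to 9690 of all genes called in the untreated comparison (9 and 10321 with all libraries), 8 to 9 and 1725 to 2484 on day 2 (9 and 2755), 2 to 4 and 1901 to 2024 on day 4 (4 and 2581), 6 to 8 and 2833 to 3386 between days under WTCM (7 and 3980), 5 to 6 and 3110 to 3429 under APCCM (6 and 3946), and 3 to 6 and 237 to 325 for the change in the label difference (4 and 351). The lowest count of all genes on day 2, 1725, came without APCCM replicate 3, and the 2 goblet genes on day 4 without WTCM replicate 2. With the conditioned medium libraries alone, the change in the label difference was called for 7 goblet genes and 568 genes. Without the filter on low counts, Fcgbp was called lower under APCCM on day 4 (adjusted p = 0.0275), Zg16 was called between days under both labels, and Muc1 was called between days under WTCM (adjusted p = 0.0047) and in the untreated comparison (0.025; 0.033 with DESeq2). The cause of these shifts was not tested. With the replicate number as a replicate block, 9, 9, 4, 7, 6 and 4 goblet genes were called in the 6 comparisons in the order above, as without it; crossing the untreated WT numbers, an alternative added after seeing the data, also gave 9, with 10563 genes called. Removing 3928 RNAs lacking a poly(A) tail changed no call of a goblet gene. Against CPM without TMM scaling, also added after seeing the data, 28 of 60 group means moved by over 1 SD. With 2 or 3 libraries per group, and 1 left in an untreated group when 1 is left out, the lone library is assumed to vary like the others.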
